A study of Mus musculus with 4 samples.

Results

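The 9 genes followed here, all linked to the resting state of lymphocytes, were measured through splenic B cells and CD4+ T cells: Klf2, Klf3, Klf6, Klf13, Foxo1, Foxp1, Btg1, Btg2 and Tob1. They were taken as a fixed list of symbols, and all 9 were found among the 32285 genes of both libraries. The spleens came from C57BL/6NRj mice carrying CD19Cre/+ and Il2rbfl/fl, in which Cre active in B cells deletes Il2rb, the beta chain shared by the IL-2 and IL-15 receptors. The genotype label gives the same alleles for both groups, so KO and control (labelled Cre) were told apart only by the hashtag text. Each genotype was sampled without immunization, here day 0, and at day 4 of a response to sheep red blood cells injected into the peritoneum. The B cells of the 4 groups were marked with hashtag antibodies and run together as 1 library, and the CD4+ T cells as another.

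Each group is therefore 1 pool of cells, and how many mice went into a pool is not given in the labels. No test between pools was possible, and no p-value is given. Intervals are 95% intervals for the counting of unique molecular identifiers (UMIs, which count captured RNA molecules) and do not hold the spread between mice. The labels name a naive CD4+ T cell kit for the T cells, yet clusters with regulatory, follicular helper and effector or memory markers were present. CD19Cre acts in B cells, so T cells are not its target.

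KLF2 and its relatives are zinc finger proteins of the Krüppel-like family that bind CACCC and GC-rich DNA. KLF2 keeps naive lymphocytes quiescent and drives S1pr1 and Itgb7, genes for egress and homing, and KLF3 is mainly a repressor that opposes KLF2 in B cells. FOXO1 is a forkhead activator of Il7r, Ccr7 and Sesn1 that AKT sends out of the nucleus when antigen or growth receptors signal, and FOXP1 holds naive T cells and follicular B cells in a resting state. BTG1, BTG2 and TOB1 are antiproliferative proteins that bring the CCR4-NOT deadenylase to messenger RNA. Klf2 and Btg1 are known to be high in resting lymphocytes and low after activation, while Klf6 and Btg2 are also immediate-early genes in many cells.

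Short stretches upstream of 3 of the genes are shown because they hold letters of known factor sites that few promoters hold. The sequences are RefSeq's for GRCm38.p6 (mm10), each from within the 250 bases before the annotated start of the gene, with the matched letters in capitals.
Klf2, chr8:72318909-72318988, plus strand, MEF2 core: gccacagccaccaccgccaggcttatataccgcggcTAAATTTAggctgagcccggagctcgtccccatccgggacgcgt
Btg1, chr10:96616761-96616839, plus strand, FOXO letters: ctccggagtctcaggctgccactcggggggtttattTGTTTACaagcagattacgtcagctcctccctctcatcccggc
Btg2, chr1:134079278-134079357, minus strand, CRE: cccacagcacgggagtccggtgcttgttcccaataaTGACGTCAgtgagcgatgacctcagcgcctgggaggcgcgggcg
Both strands of the 250 bases were searched, and the matches begin 117, 204 and 166 bases before RefSeq's start of Klf2, Btg1 and Btg2, which in these 3 genes differs from the GENCODE start. TAAATTTA, the core of a MEF2 site, lay in 0.502% of the 32851 promoters in the table and among the members only in Klf2. TGTTTAC, which forkhead proteins bind, lay in 3.17% and only in Btg1. TGACGTCA, the cyclic AMP response element, lay in 1.55% and only in Btg2. The letters GGGGCGG, bound by SP and KLF proteins, lay in 21.0% of promoters, in 10 of the 11 promoter entries of the members and in at least 1 entry of each gene. The shorter CACCC lay in 52.0% of all promoters and in 6 of the 11 entries. A match describes the letters only, since binding was not measured.

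The genes lie on different chromosomes of mm10 by the GENCODE vM21 annotation, such as Klf2 at chr8:72319033-72321656, Btg1 at chr10:96617006-96622809, Foxo1 at chr3:52268336-52353221 and Foxp1 at chr6:98925338-99522721. Levels are given in CPM, the summed UMIs of a gene per 1000000 UMIs of the same cells. They come from the 5′ ends of transcripts and were not scaled to gene length, so no level of one gene is set against that of another.

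Cells of the B lineage with 1 hashtag numbered 981 to 1860 per pool with median depths of 4637 to 6102 UMIs, and those of the T lineage 979 to 3236 with 4517 to 5571. Il2rb itself gave 0 UMIs in both day 0 B pools, 8 UMIs in control and 4 in KO at day 4, so its RNA was too sparse in B cells to check the genotype labels. In T cells Il2rb stood at 88.0 CPM in control and 73.6 in KO at day 0, and at 110 and 104 at day 4. Markers of monocytes, neutrophils, dendritic cells, erythroid cells and the opposite lineage summed to at most 28.0 CPM per list in any pool, after cells with several such markers had been left out. The T gene Cd3e was at 0 in all 4 B pools, but 3 or 4 of the 5 T markers had UMIs in each, summing to 17.0 to 28.0 CPM. The B gene Ms4a1 was at 0 in all 4 T pools, where the 3 other B markers of 4 had UMIs, summing to 3.70 to 12.9 CPM. The 2 libraries shared 83 cell barcodes, 1.33% of the B cells and 0.903% of the T cells kept. Subsets are clusters named from marker lists, and neither the members nor their pathway genes took part in the clustering.

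Among B cells, Klf2 differed widely between the subsets. It stood at 1084 CPM (95% interval 1057 to 1111) in follicular-like cells, the recirculating resting B cells used as the reference. Transitional-like cells had 995 CPM, B1-like cells 883, the unnamed cluster 1 736, interferon-responding cells 649 and Samsn1-high activated cells 556. Growing cells with high Myc-list genes had 235 CPM, cycling cells 163, marginal zone-like cells 150 and plasma cell-like cells 18.1. The order ran from resting recirculating cells to dividing and secreting cells, with marginal zone-like cells, which stay in the spleen, next to the cycling cells. The intervals of cycling (146 to 182) and marginal zone-like cells (139 to 162) overlapped, and those of no other neighbours in this order did.

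The marginal zone-like level of Klf2 was 0.139 of the follicular-like level (0.128 to 0.150). Its per-pool values, 99.7 CPM in control and 113 in KO at day 0 and 172 and 174 at day 4, all lay under the lowest follicular-like pool, at 1004. Klf3 was at 73.1 CPM in marginal zone-like cells against 233 in follicular-like cells (ratio 0.314, 0.278 to 0.355), and Klf6 at 35.4 against 89.8 (0.395, 0.328 to 0.472). The 3 KLF genes thus showed the lowest ratios of the 9 members in these cells. Foxo1 (0.758), Foxp1 (0.730), Btg2 (0.717) and Klf13 (0.618) were less far below the reference, and Btg1 (0.812) and Tob1 (0.838) were above the mark used for counting, a ratio of 0.8.

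A gene was counted as lower at a ratio of 0.8 or less and as higher at 25% or more above the reference, with at least 50 UMIs in both subsets together. In marginal zone-like cells 7 of 9 members were lower, where 34.7% of all 9038 genes counted were. B1-like cells, the innate-like B cells with high Zbtb32, also had 7 of 9 lower against 30.5% of genes, but there Klf2 (0.815) and Klf6 (0.984) were the 2 above the mark. Marginal zone-like and B1-like cells lay apart by Klf2 and Klf6, at 150 against 883 CPM and 35.4 against 88.4 CPM, and also by Klf3, at 73.1 against 158 CPM. Interferon-responding cells had 5 of 9 lower, against 22.6% of genes. The unnamed cluster 1, whose best marker list was the follicular one, had 6 of 9 lower, against 27.6%.

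Transitional-like cells, the recent arrivals from bone marrow, carried 3 members counted as higher than in follicular-like cells, where 25.4% of genes were. These were Btg1 at 1666 against 1252 CPM (ratio 1.33, 1.28 to 1.38), Foxo1 at 187 against 136 (1.37, 1.22 to 1.54) and Tob1 at 24.1 against 16.1 (1.49, 1.05 to 2.10). Klf3 (0.604) and Klf6 (0.545) were lower in the same cells, and Klf2 was close to the reference (0.918, 0.875 to 0.963). With cells gated one by one in place of clusters the Klf2 ratio turned to 1.22.

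Activated B cells split the list. In Samsn1-high cells, named for a group of genes with Samsn1, Lifr and Socs3, 7 of 9 members were lower, against 24% of genes. Btg1 and Foxo1 were the exceptions. Btg1 was at 1209 CPM (1185 to 1233) beside 1252 (1223 to 1282) in follicular-like cells, and Foxo1 at 119 beside 136 (0.874, 0.795 to 0.963). Klf3 at 89.4 CPM (ratio 0.384), Klf6 at 43.6 (0.486), Klf2 at 556 (0.513) and Btg2 at 113 (0.537) were the most reduced beside Tob1 (0.509). Btg1 and Btg2, the closest relatives among the members, thus had ratios of 0.965 and 0.537 in the same cells.

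In growing and cycling B cells all 9 members were lower, against 37.4% and 36.8% of genes. Cycling cells, with germinal center genes such as Gcsam and Mybl1 among their leading genes, held Klf2 at a ratio of 0.151, Klf3 at 0.188, Btg1 at 0.289, Foxp1 at 0.290 and Btg2 at 0.308. Foxo1 had the highest ratio of the members there, at 73.2 against 136 CPM (0.537, 0.448 to 0.640). The growing cells held Btg1 at 859 CPM (0.686) and Btg2 at 82.4 (0.391). FOXO1 is known to be needed in dark zone germinal center cells.

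Plasma cell-like cells had all 9 members lower, but 69% of all genes were lower there too, and receptor, ribosomal and mitochondrial genes held 49.8% of their UMIs against 32.6% in follicular-like cells. Btg1 stood at 20.7 CPM from 24 UMIs against 1252, Klf2 at 18.1 from 21 UMIs against 1084, and Btg2 at 123 from 143 UMIs against 211. Scaled to the total without receptor, ribosomal and mitochondrial genes, the ratio was 0.0222 for Btg1, 0.0224 for Klf2 and 0.785 for Btg2. Btg1 and Btg2 thus parted in plasma cell-like cells in the opposite way to Samsn1-high cells. These were 36 cells, with 16 or fewer in any pool, and no subset level per pool is given for them.

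**Figure D1:**
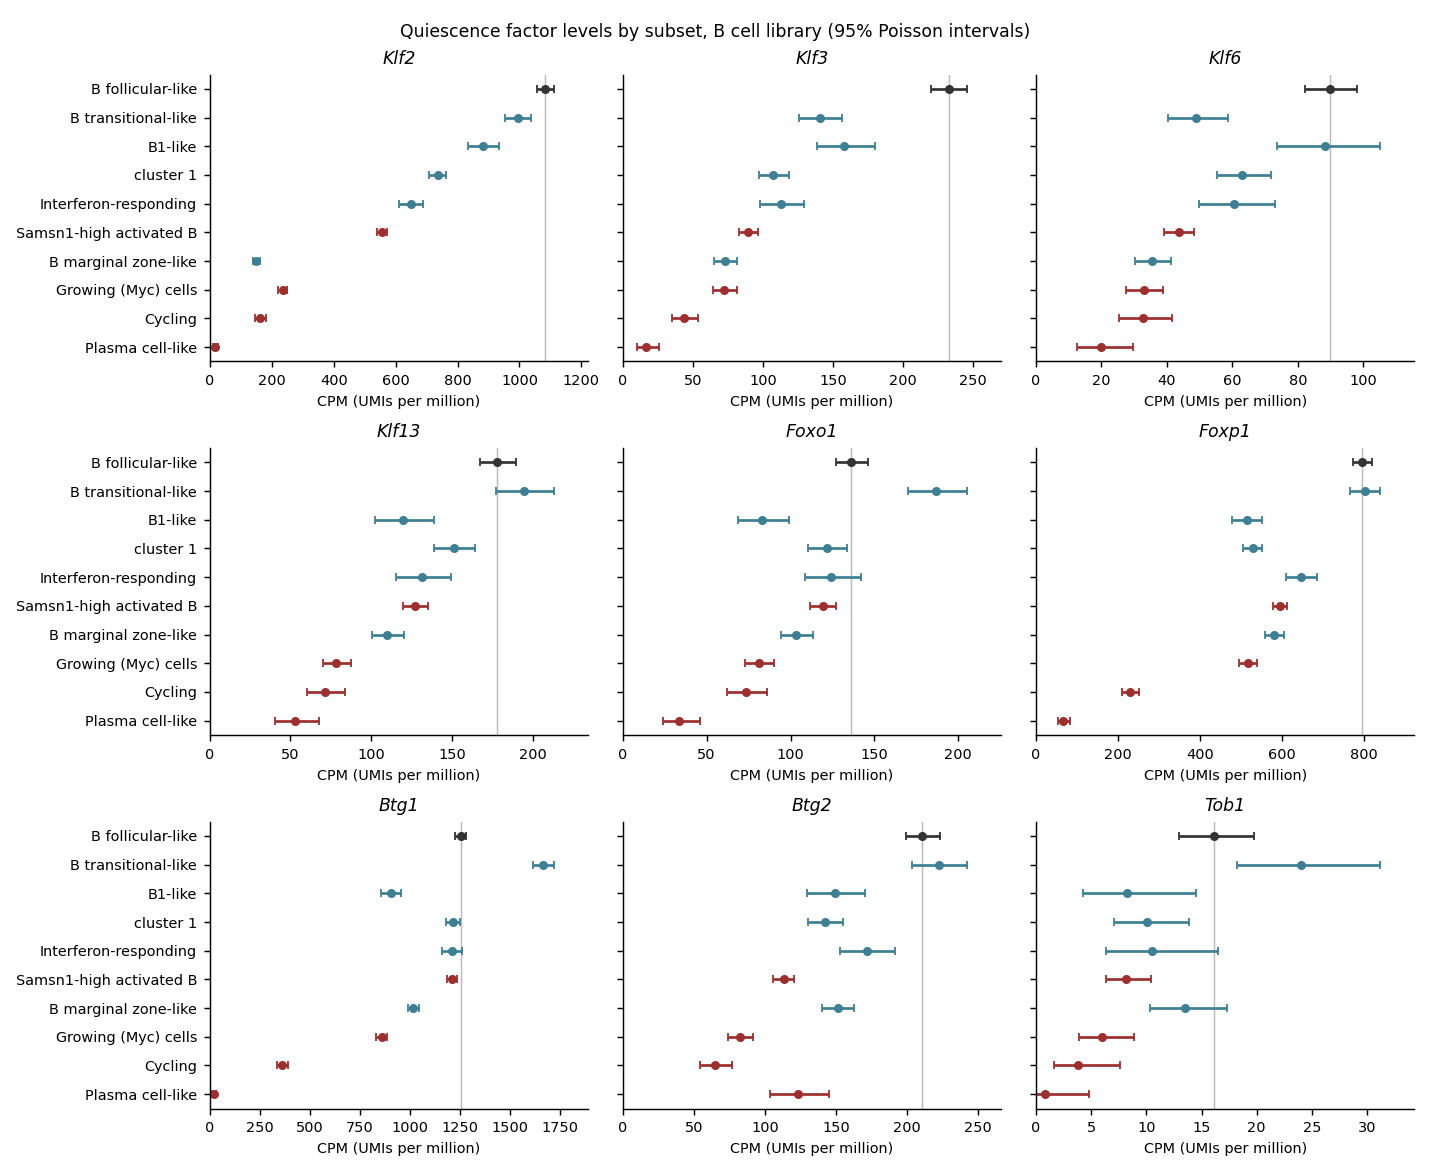
Level of each of the 9 genes (x axis, CPM, from 0) in the subsets of the B library (y axis), summed over the 4 pools, with 95% Poisson intervals as bars and the follicular-like level as a grey line; dark grey marks the reference, red the activated, growing, cycling and plasma cell-like subsets, teal the rest. Klf2 falls from 1084 CPM in follicular-like cells to 150 in marginal zone-like cells, while Btg1 is at 1209 CPM in Samsn1-high cells and 1252 in the reference.

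In T cells the naive-like cluster, named from a list with Lef1, Tcf7 and Satb1, held the highest level of 6 members among all 15 subsets: Klf2 at 960 CPM (930 to 990), Klf3 at 540 (518 to 563), Klf6 at 148 (137 to 160), Btg1 at 1080, Btg2 at 214 and Tob1 at 45.4. The Btg1 interval met those of clusters 11 and 13 and the Btg2 interval those of several subsets. Foxp1 was as high in the unnamed cluster 11, at 402 CPM in both. Klf3 in the next subset, natural killer or innate-like T cells, was 328 CPM (299 to 360), which did not overlap the naive-like interval. Klf3 was also among the 10 leading genes by fold of this cluster and of the follicular-like B cluster, although the clustering had not used it. Foxo1 and Klf13 followed another order: Foxo1 was highest in cluster 7 (203 CPM) and Klf13 in cluster 8 (408), against 149 and 359 in naive-like cells.

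The clusters next to the naive-like cells in markers (4, 5, 7 and 8, whose best marker list was also the naive one, under the threshold for a name) held Klf2 at 502 to 636 CPM and Klf3 at 205 to 246 CPM. Their Foxo1 levels of 152 to 203 CPM lay above the naive-like 149 and their Klf13 levels of 340 to 408 CPM on both sides of the naive-like 359. Effector or memory-like cells, at 635 CPM of Klf2 and 278 of Klf3, were no lower than these clusters in either gene except for Klf2 in cluster 8. Cluster 5 was led by Rmrp, Lars2 and Gm42418, transcripts that often mark damaged or low-quality cells, and the part of RNA quality in its levels was not tested.

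Follicular helper-like T cells, which help B cells in follicles, had all 9 members lower than naive-like cells, where 20.3% of genes were. Klf2 stood at 350 CPM (331 to 370; ratio 0.365), Klf3 at 133 (0.246), Klf6 at 43.2 (0.291), Btg1 at 433 (0.401) and Klf13 at 146 (0.405). KLF2 is known to oppose the follicular helper programme, and S1pr1 is among its targets. Foxo1 at 97.0 CPM (0.650) and Btg2 at 138 (0.646) were the least different. Only the day 4 pools held 20 or more of these cells, and Klf2 was 336 CPM in control and 362 in KO.

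Cycling T cells had the lowest Btg1 of all T subsets, at 182 CPM (167 to 199) against 1080, a ratio of 0.169 (0.154 to 0.185). All 9 members were lower there against 27% of genes, with Tob1 at 0.240, Foxp1 at 0.305 and Klf3 at 0.317. Klf2 in cycling T cells (395 CPM) exceeded that in follicular helper-like cells (350), and the intervals of 372 to 419 and 331 to 370 did not overlap. Btg1, Btg2, Tob1, Foxo1, Foxp1 and Klf13 had their lowest T cell level in the cycling cells. The intervals of Klf13 (144 against 146 CPM), Foxo1 (84.1 against 97.0) and Tob1 (10.9 against 13.2) overlapped those of follicular helper-like cells, however.

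Regulatory T-like cells had 7 of 9 members lower against 12.4% of genes, with Klf2 at 446 CPM (0.465) and Klf3 at 298 (0.553), while Foxo1 at 176 was above the naive-like 149 (ratio 1.18, 1.06 to 1.32). Effector or memory-like cells also had 7 of 9 lower, against 12.8% of genes, with Foxp1 at 227 CPM (0.565) and Klf2 at 635 (0.661). Natural killer or innate-like T cells had 8 of 9 lower against 15.5% of genes, with Klf2 at 344 CPM (0.359). Interferon-responding T cells had 7 of 9 lower against 15.7%, but Klf13 (1.05) and Foxo1 (1.16) were not among them. With cells gated one by one the counts were 3 in regulatory and 4 in each of the other 3 subsets. Klf6 then turned to ratios of 1.08, 1.42 and 1.32 in regulatory, effector or memory and innate-like cells. Clusters 4, 5 and 8, whose best list was the naive one, also had 7 of 9 lower, against 20.6%, 30.1% and 12.5% of genes. Cluster 7 had 6 of 9 lower, against 15.7%. Such counts were thus not particular to the named subsets.

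Of the 2 T clusters with the Myc list, cluster 13 was the stronger one (median log2 difference of the list 1.67, against 0.50 in cluster 0, just at the threshold for a name). Cluster 13, led by Egr3, Nr4a1 and Egr2, genes of recent T cell receptor signalling, had 7 of 9 members lower against 30% of genes. Its Klf2 was the lowest of the T subsets at 252 CPM (216 to 292), yet its Btg1 was 992 CPM (0.919) and its Btg2 210 CPM (0.985). Immediate-early genes, which include genes raised by tissue dissociation, summed to 2538 CPM in cluster 13 and 419 to 1042 CPM in the other T subsets, and their part in the Btg2 level was not tested. Cluster 0 had 6 of 9 lower against 18.5%, with Klf2 at 482 CPM (0.503), Foxo1 at 154 (1.03) and Klf13 at 390 (1.09). Its cells came mostly from day 4, with 292 in control and 605 in KO against 15 and 5 at day 0. The naive-like reference held cells of both days, so subset and day cannot be told apart in these ratios.

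**Figure D2:**
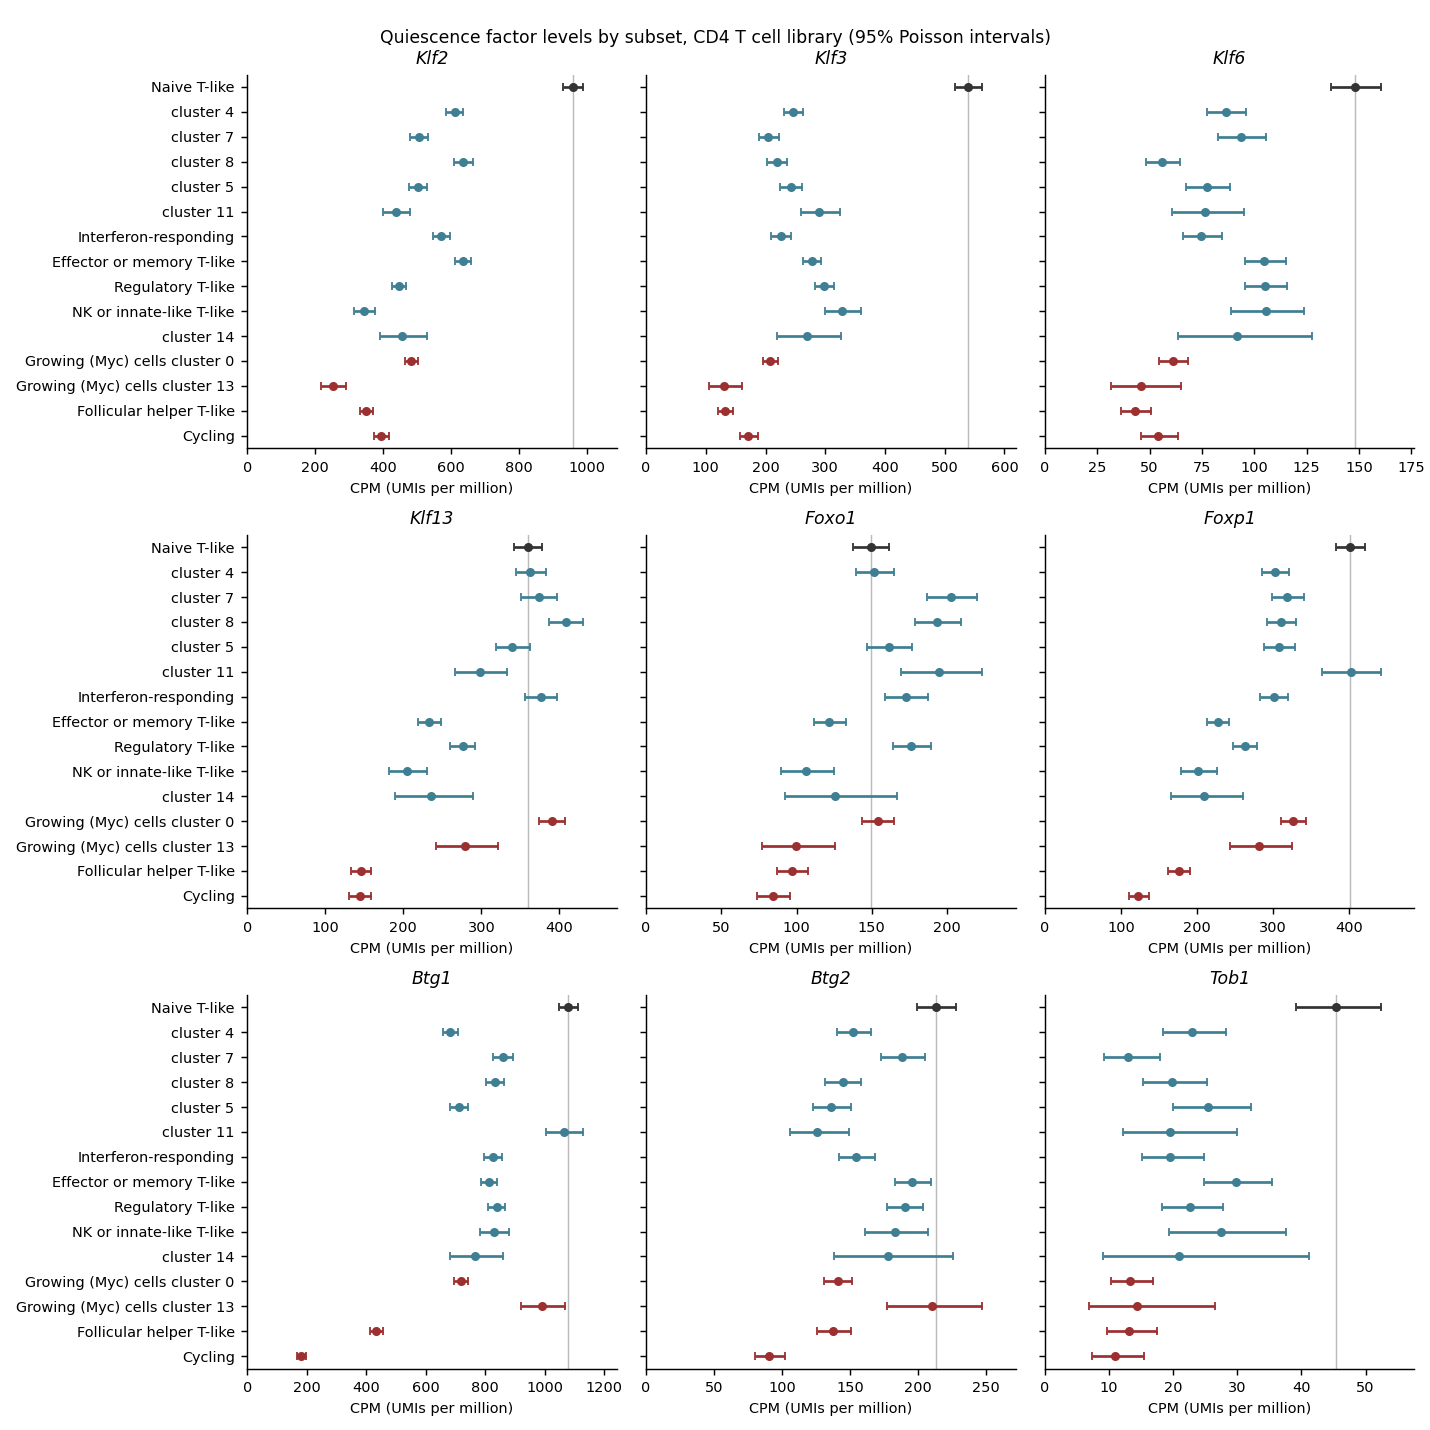
Level of each of the 9 genes (x axis, CPM, from 0) in the subsets and numbered clusters of the CD4 T library (y axis), with 95% Poisson intervals and the naive-like level as a grey line; dark grey marks the reference, red the growing, follicular helper-like and cycling subsets, teal the rest. Klf2, Klf3, Klf6 and Tob1 are highest in naive-like cells, while Foxo1 and Klf13 are as high or higher in several numbered clusters.

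The levels of the members across clusters were compared as a description, over 10 B clusters and 15 T clusters with at least 50 cells, whose cells share a library. Klf3 and Klf6 were close in both libraries, with Pearson r of log2 levels of 0.892 in B and 0.916 in T cells, where Klf6 was the gene most like Klf3 among 9073. Foxp1 and Klf13 followed each other more closely in T cells (0.884) than did Klf2 and Klf3 (0.675). Btg1 and Btg2 had r of 0.729 and 0.743. The gene most like Klf2 was Cdc42se1 in B cells (0.976), followed by Tsc22d3 (0.966), the glucocorticoid-induced leucine zipper gene, and Stk38 in T cells (0.941). Btg2 in T cells was most like Junb (0.909), Foxp1 in T cells most like Bach2 (0.957), a repressor of effector genes, and Klf13 in T cells was most like 3 ribosomal protein genes (Rps4x at 0.963).

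Over whole pools, each of the 9 genes had less of the UMIs at day 4 than at day 0, whichever the genotype or lineage. In KO T cells, however, the ratio intervals of Klf2 (0.970) and Klf13 (0.999, 0.949 to 1.052) held 1. The share of all genes below 1 was not computed for these comparisons. Klf2 in B cells was at 708 CPM in control and 644 in KO at day 0, and at 483 and 562 at day 4. The day 4 over day 0 ratio was 0.683 in control (0.655 to 0.712) and 0.872 in KO (0.838 to 0.907). In T cells Klf2 was at 622 and 575 CPM at day 0 and at 487 and 558 at day 4. The control ratio was 0.783 (0.749 to 0.819) and the KO ratio 0.970 (0.934 to 1.007). The day 4 pools of B cells did not overlap the day 0 pools, and in T cells the KO day 4 interval (547 to 568) met the KO day 0 interval (556 to 594).

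Klf3 in B cells was at 144 and 122 CPM at day 0 and at 103 and 103 at day 4, in control and KO. In T cells it was at 321 and 305 CPM and then at 224 and 253, with the lowest ratio of the members in T control cells (0.698, 0.655 to 0.744). Klf6 in B cells was at 67.0 and 67.4 CPM and then at 44.6 and 45.8, and in T cells at 103 and 101 and then at 75.1 and 79.95. Both genes were lower in each day 4 pool than in either day 0 pool, in both lineages. Klf13 in B cells was at 147 and 146 and then at 116 and 123 CPM, and in T cells at 334 and 307 and then at 299 and 307, where the KO ratio was 0.999.

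Foxo1 in B cells was at 126 and 128 CPM at day 0 and at 102 and 110 at day 4, and in T cells at 177 and 174 and then at 136 and 145. Foxp1 in B cells was at 671 and 625 CPM and then at 524 and 574, and in T cells at 329 and 320 and then at 260 and 273. The forkhead genes were lower in both day 4 pools of each lineage. Btg1 in B cells was at 1294 and 1211 CPM and then at 937 and 1037, and in T cells at 924 and 897 and then at 680 and 721. Btg2 in B cells was at 164 and 178 and then at 124 and 133 CPM, and in T cells at 181 and 187 and then at 151 and 157. Tob1, the sparsest member with 72 to 409 UMIs per pool, was at 12.4 and 17.2 and then at 7.90 and 9.65 CPM in B cells, and at 29.0 and 24.7 and then at 21.1 and 20.2 CPM in T cells.

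**Figure D3:**
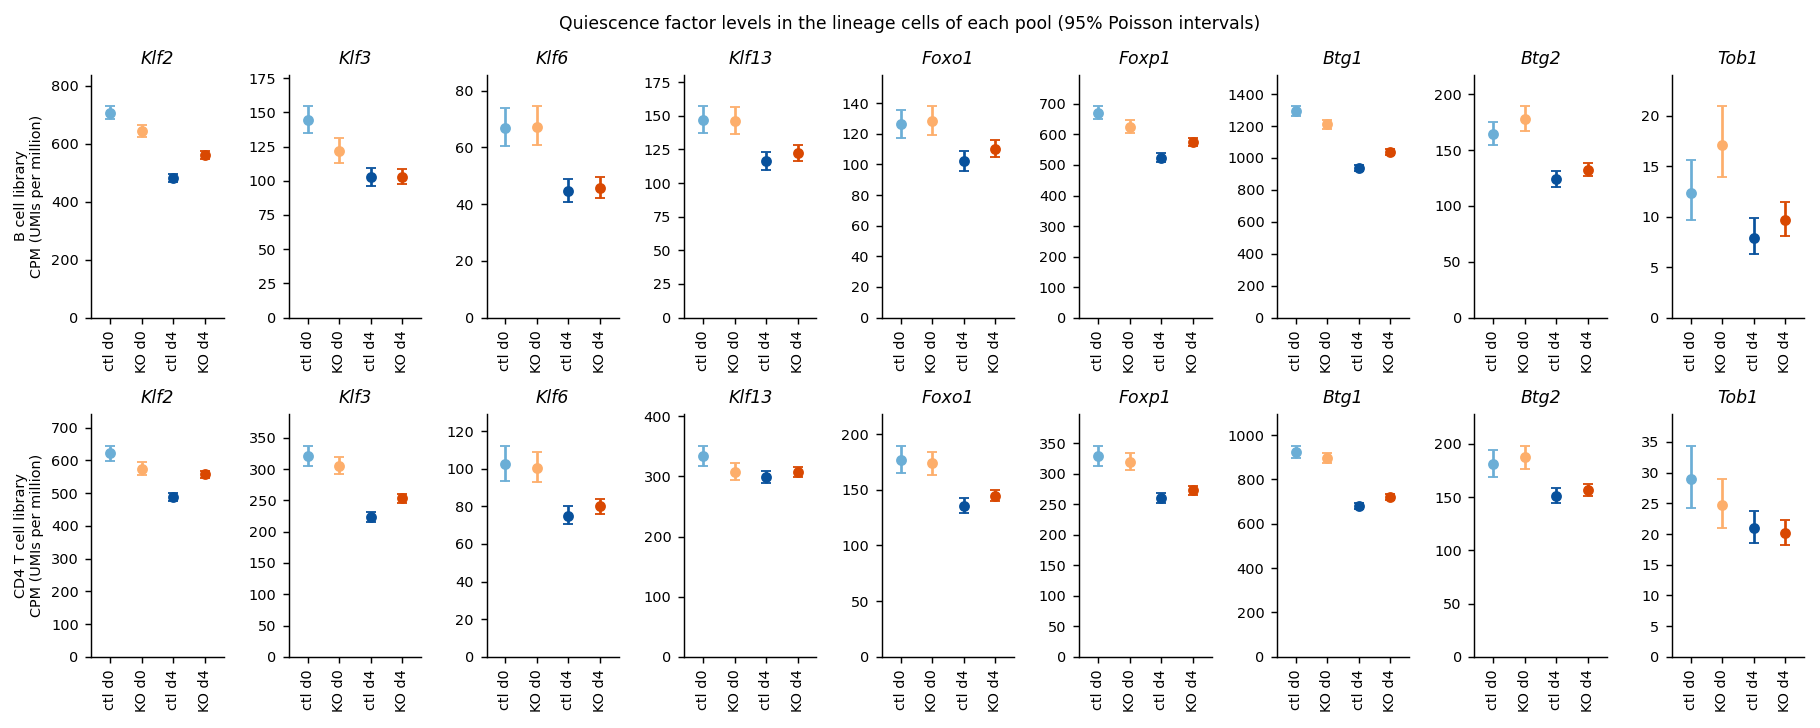
Level of each gene (y axis, CPM, from 0) in the lineage cells of the 4 pools (x axis; ctl is control, d0 and d4 are days), B library above and CD4 T library below, with 95% Poisson intervals; each point is 1 pool. Every gene is lower in the day 4 than in the day 0 pool of its genotype, as for Btg1 in control B cells at 937 against 1294 CPM. For Klf2 (ratio 0.970) and Klf13 (0.999) in KO T cells the ratio interval holds 1.

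In B cells 8 of 9 members passed the lower mark, a ratio of 0.8, at day 4 in control, where 21.1% of 9760 genes were, and 3 of 9 in KO, where 11.1% of genes were. In T cells the counts were 7 of 9 against 12.5% in control and 1 of 9 (Klf6, 0.795) against 7.53% in KO. The median log2 ratios of the members were −0.47, −0.24, −0.38 and −0.26 in B control, B KO, T control and T KO, against −0.10, −0.03, 0.00 and 0.05 over all genes counted. The B control count was 4 without cells bearing 2 or more cycling markers and 4 as a mean over cells, and 5 without cells over 3 times the pool's median UMIs or when scaled by the median ratio. The T control count was 3 as a mean over cells. The genotypes were each compared with their own day 0 pool, and the difference between the genotypes' ratios was not tested.

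The summed immediate-early genes were also lower at day 4 in each genotype and lineage. The 11 genes of that list summed to 306 CPM in control and 286 in KO B cells at day 0 and to 247 and 273 at day 4, and in T cells to 941 and 859 and then to 719 and 708. Of 8 counted, 4 were lower past the mark in B control, 2 lower and 1 higher in B KO, 5 lower and 2 higher in T control and 3 lower and 2 higher in T KO. Their part in the members' levels was not tested.

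The subsets were not equally common in the pools, and in a sum over a pool a smaller share of a subset and less RNA per cell cannot be told apart. The follicular-like cluster held 33.3% (exact binomial interval 30.5 to 36.2) of B lineage cells in control day 0 and 15.1% (13.2 to 17.2) in control day 4, and the Samsn1-high clusters 4.01% (2.93 to 5.35) and 35.7% (33.1 to 38.4). These shares depend on genes that themselves differ by day and serve here only as weights. Each day 4 subset level was therefore weighted by the day 0 share of UMIs of its subset. With that mix held, Klf2 in control B cells had a day ratio of 1.004 (0.957 to 1.053) in place of 0.683, Klf3 1.06 (0.957 to 1.18) in place of 0.710, and Btg2 1.003 (0.910 to 1.106) in place of 0.755.

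With the mix held, 0 of 9 members in B control, 1 of 9 in B KO (Tob1, 0.730), 1 of 9 in T control (Klf3, 0.7999) and 0 of 9 in T KO passed the lower mark. Btg1 in B cells stayed below 1, with a mix-held ratio of 0.827 in control and 0.883 in KO against 0.724 and 0.857 as measured, as did Klf6 at 0.830 and 0.812. In T cells 8 of 9 mix-held ratios were below 1 in control, from 0.7999 for Klf3 to 0.919 for Foxp1, and Klf13 was at 1.03. In KO, Klf2 came above 1 with the mix held in both lineages, at 1.086 (1.039 to 1.134) in B and 1.087 (1.044 to 1.132) in T cells, as did Klf13 in T cells, at 1.106 (1.047 to 1.169). Klf2 and Klf3 in B control cells thus came to 1 or above with the mix held, and Klf6, Foxp1 and Btg1 kept intervals below 1. This weighting was chosen after the subset values had been seen.

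**Figure D4:**
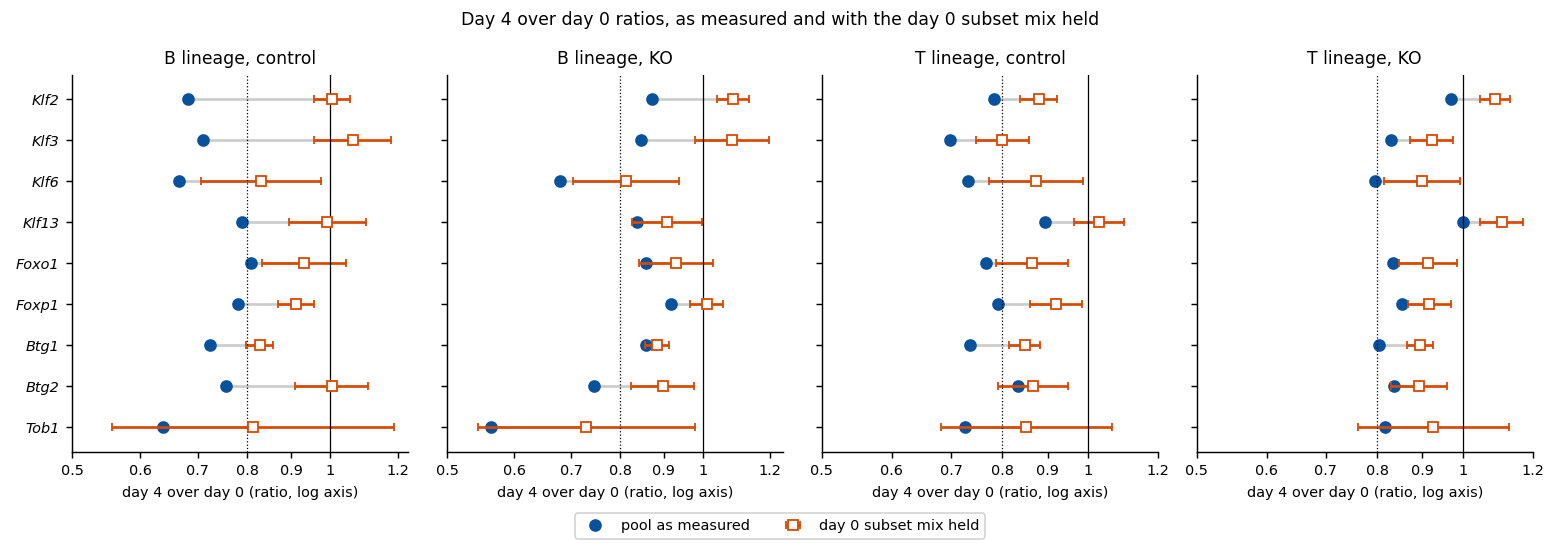
Day 4 over day 0 ratio of each gene (x axis, log scale; solid line at 1, dotted line at 0.8, the lower mark) in the 2 lineages and genotypes, as measured over the pool (filled circles) and with the day 0 subset mix held (open squares with 95% counting intervals). In B control cells Klf2 moves from 0.683 to 1.004 and Btg1 from 0.724 to 0.827.

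Within subsets, the members took different courses by day. In follicular-like B cells Klf2 was at 1023 CPM in control and 1004 in KO at day 0 and at 1092 and 1226 at day 4, and Klf3 at 218 and 196 and then at 278 and 254. Klf3 was thus higher at day 4 within these cells (ratio 1.28, 1.09 to 1.49, in control; 1.30, 1.11 to 1.52, in KO) although lower over the pools. Btg1 in the same cells was at 1374 and 1281 CPM and then at 1096 and 1192 (0.797 in control, 0.931 in KO).

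Klf2 in marginal zone-like cells was higher at day 4 in both genotypes, at 172 against 99.7 CPM in control (1.72, 1.29 to 2.32) and 174 against 113 in KO (1.55, 1.24 to 1.95). Btg2 there was lower in both, at 118 against 176 CPM in control (0.672) and 147 against 185 in KO (0.794). In growing B cells Btg1 was at 1105 and 1158 CPM at day 0 and at 747 and 755 at day 4 (0.676 and 0.652). In Samsn1-high cells Klf6 was at 77.5 and 102 CPM at day 0 and at 39.6 and 42.1 at day 4 (0.511 and 0.415), and 44 and 30 such cells stood behind the day 0 values. Cluster 3 held 231 of the 468 control day 4 cells of this class and 9 of its 44 control day 0 cells, so the same name covers another mixture of clusters on the 2 days.

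Counted over all subsets with at least 20 cells in both pools, 18 of 127 member and subset pairs in B cells passed the lower mark at day 4 with an interval below 1, against 5.21% of all gene and subset pairs, and 5 were higher, against 2.95%. In T cells 19 of 164 were lower, against 4.56%, and 4 higher, against 3.32%. The lower pairs were 6 in B and 9 in T cells when each cell was thinned to 1500 UMIs, and 9 and 12 when cells were gated one by one. Btg1 was below 1 in 7 of 8 B subsets in each genotype and in 10 of 10 T subsets in control and 9 of 10 in KO. Klf2 was below 1 in 4 of 8 B subsets in each genotype. The Btg1 interval was below 1 in 6 and 5 of the 8 B subsets and in 6 and 5 of the 10 T subsets, in control and KO. In 1 B subset in control it was above 1. Klf6 was below 1 in 7 of 7 B subsets in each genotype and Klf3 in 10 of 10 T subsets in control. Low ratios across subsets were thus not particular to Btg1, while Klf2 in B cells lay on both sides of 1. The share of all genes below 1 within subsets was not computed.

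In regulatory T-like cells Klf2, Klf3 and Klf6 differed between the genotypes at day 4, with the 6 other members at KO over control ratios of 0.947 (Btg2) to 1.19 (Foxp1, interval 1.03 to 1.38). Klf2 there was at 574 CPM in control and 485 in KO at day 0 and at 353 and 472 at day 4, and Klf3 at 366 and 327 and then at 228 and 323. The control day ratios were 0.616 (0.519 to 0.732) for Klf2 and 0.623 (0.503 to 0.774) for Klf3. The KO over control ratios at day 4 were 1.335 (1.193 to 1.496) and 1.42 (1.23 to 1.63), and that of Klf6 was 1.39 (1.10 to 1.77). The control day 4 pool was the low one of the 4 for all 3 KLF genes. In effector or memory-like T cells the control day 0 pool stood apart for Klf2, at 937 CPM against 622 in KO at day 0 and 576 and 634 in control and KO at day 4.

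**Figure D5:**
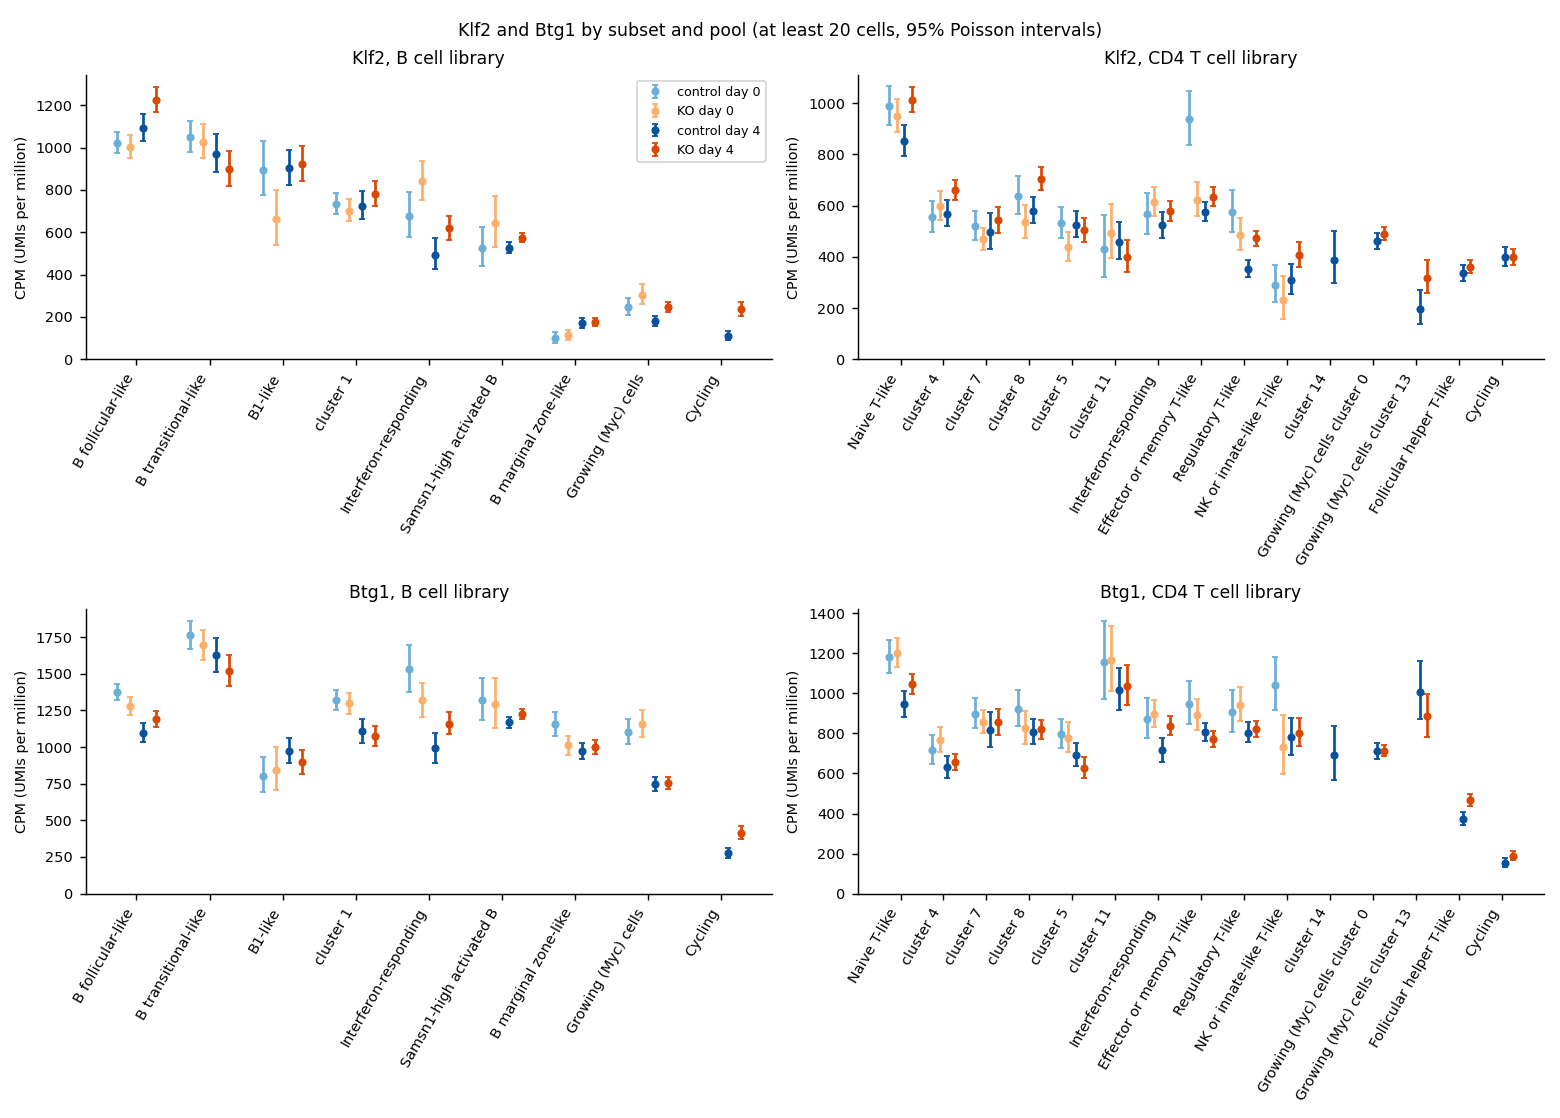
Levels of Klf2 (upper panels) and Btg1 (lower panels) in CPM (y axis, from 0) by subset (x axis) and pool (colour), B library left and CD4 T library right, shown where a pool holds at least 20 cells, with 95% Poisson intervals. Klf2 in marginal zone-like B cells is at 172 and 174 CPM at day 4 and at 99.7 and 113 at day 0, and Btg1 in growing B cells is at 1105 and 1158 CPM at day 0 and at 747 and 755 at day 4.

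Between genotypes, none of the members passed either mark over whole pools apart from Tob1 in B cells at day 0, at 17.2 CPM in KO and 12.4 in control (1.39, 1.01 to 1.91, from 96 and 72 UMIs). The count was 1 of 9 in B cells at day 0, where 14% of genes differed by that much in either direction, and 0 of 9 at day 4, where 12.6% did. In T cells it was 0 of 9 on both days, against 15.7% and 11%. At day 4 all 9 members in B cells and 8 of 9 in T cells (all but Tob1, 0.958) were above 1 in KO, where 60.1% and 55.3% of all genes were. The largest of these ratios outside Tob1 was that of Klf2, at 1.16 (1.121 to 1.205) in B and 1.14 (1.11 to 1.18) in T cells.

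At day 0 Klf2 was below 1 in both lineages, at 0.910 (0.870 to 0.952) in B and 0.924 (0.879 to 0.971) in T cells. Foxp1 and Btg1 in B cells were below 1 at day 0 (0.932 and 0.935) and above 1 at day 4 (1.10 and 1.11). The KO over control ratios of these genes thus lay on opposite sides of 1 on the 2 days, and that of Klf2 did so in T cells too, which CD19Cre does not target. With the control subset mix held, Klf2 in B cells was at 0.995 (0.952 to 1.041) at day 0 and 1.11 at day 4. The other ratios kept their sides of 1 with that mix held. Klf2 in T cells was at 0.906 (0.862 to 0.953) at day 0 and 1.12 (1.09 to 1.16) at day 4. Foxp1 and Btg1 in B cells also stayed below 1 at day 0 and above 1 at day 4, with intervals clear of 1.

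Within subsets at day 4, Klf2 was above 1 in KO in 8 of 9 B subsets and 12 of 14 T subsets, with the interval above 1 in 5 and 7 of them. Btg1 was above 1 in 6 of 9 and 11 of 14, and Foxo1 in 7 of 9 and 9 of 13. Foxp1 was so in 7 of 9 and 7 of 14, and Klf13 in 5 of 9 and 4 of 14. The share of all genes above 1 within subsets was not computed. The widest ratios in B cells were those of cycling cells, where 41 KO and 35 control cells held Klf2 at 238 and 111 CPM (2.14, 1.67 to 2.75), Klf3 at 58.2 and 25.2 (2.31, 1.38 to 4.00), Btg2 at 67.4 and 35.5 (1.90, 1.21 to 3.03) and Btg1 at 415 and 276 (1.501, 1.272 to 1.774). Over both days, 7 of 131 pairs in B cells were at least 25% higher in KO with an interval above 1, against 3.65% of all pairs, and 5 were lower, against 2.98%. In T cells 10 of 192 were higher, against 3.62%, and 8 lower, against 2.76%. When each cell was thinned to 1500 UMIs, 1 pair in B cells was higher in place of 7, and with coarser clusters, at Leiden resolution 0.5, 15 were. The share of all pairs was not computed for these settings.

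The other genes of the pathway were followed as lists. Of all genes counted, 21.1% passed the lower mark at day 4 in B control, 11.1% in B KO, 12.5% in T control and 7.53% in T KO. Of the known targets of KLF2 or FOXO1, 7 of 11 counted passed the lower mark at day 4 in B control, 5 of 11 in B KO, 8 of 12 in T control and 4 of 12 in T KO, and none was higher. In B control cells Ccr7, the receptor that leads lymphocytes to T cell zones, was at 79.8 against 155 CPM (0.513, 0.466 to 0.565) and Itgb7, an integrin chain for gut homing, at 54.8 against 86.7 (0.632). In T control cells Il7r, the IL-7 receptor chain, was at 276 against 504 CPM (0.547, 0.519 to 0.577) and Sesn1, a brake on mTORC1, at 55.3 against 97.6 (0.567). The medians of the targets were −0.41, −0.30, −0.35 and −0.17 on the log2 scale, beside −0.47, −0.24, −0.38 and −0.26 for the members.

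The same targets were lower than the reference in 11 of 11 counted in Samsn1-high B cells, against 24% of all genes. In cycling B cells 9 of 11 were (36.8%), in follicular helper-like T cells 10 of 12 (20.3%) and in cycling T cells 9 of 12 (27%). Such counts were not particular to activated subsets. Marginal zone-like (34.7%) and B1-like cells (30.5%) had 8 of 11 lower, and T clusters 4 (20.6%) and 5 (30.1%) 10 of 11. Transitional-like cells (14.2%) had 4 of 11 lower. Of other FOXO, FOXP and related forkhead genes, 4 of 5 were lower at day 4 in B control (Foxo4 at 0.631 and Foxo3 at 0.651 the lowest) and 1, 2 and 1 of 5 in B KO, T control and T KO. Of other KLF genes 1 of 6, 3 of 6, 3 of 5 and 2 of 5 were lower, while 1 of 6 was higher in B KO and 2 of 5 in T control. Klf10 was at 0.479 in B control and Klf11 at 0.445 in T control.

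A list of Btg3, Tob2, Pabpc1 and 11 subunits of the CCR4-NOT deadenylase, through which BTG and TOB proteins act, showed little of this. In B control, B KO, T control and T KO 2, 0, 1 and 0 of 14 were lower, with 1 higher in T control. The medians were −0.04, −0.03, −0.03 and −0.01. Of other quiescence factors 6 of 12, 3 of 12, 3 of 13 and 3 of 13 were lower, and 1 was higher, in T KO. Tsc22d3 was at 94.0 against 211 CPM (0.445) and Zfp36l2, which destabilizes messenger RNA, at 60.7 against 124 (0.489) in B control. Of PI3K and AKT genes 4, 1, 3 and 1 of 11 were lower, led by Sgk1 in B control (0.394, 0.269 to 0.572). In T control and in T KO 1 of these 11 was higher. In B cells growth genes went the other way, with 6 of 8 higher in control, where 10.3% of genes were, and 3 of 8 in KO, where 8.97% were. In T cells 0 of 8 were higher in control against 16.2% of genes and 2 of 8 in KO against 14.9%. Srm, a polyamine synthesis enzyme and Myc target, was at 90.1 against 45.5 CPM in B control (1.98, 1.73 to 2.28) and at 65.6 against 40.6 in B KO (1.62, 1.40 to 1.88).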

How the data were processed

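The deposited matrices hold UMI counts per cell barcode and gene, with hashtag counts, made by the authors with Cell Ranger 5.0.0 on mm10, per the submitters' processing notes and the file headers. Cells needed 200 genes or more and a mitochondrial share of 10% or less, which left 6218 B and 9196 T library cells. HTODemux (Seurat 5.3.0, R 4.3.3, quantile 0.99) gave the hashtags. This gave 5477 and 7636 cells with 1 hashtag; 568 and 1007 with several were left out as doublets, with no other doublet caller, and 173 and 553 had none. Lineage cells (5247 B and 7491 T) needed at least 2 lineage markers and few of other cell types. Clusters (scanpy 1.11.5, leidenalg 0.10.2; 10000 UMIs per cell, 2000 variable genes, 30 components, 15 neighbors, resolution 1) were named by whichever marker list led by median log2 fold, if that was 0.5 or more with at least 3 markers higher. T cluster 14, led by macrophage genes, was left unnamed, and T clusters 0 and 13 were kept apart, both after seeing them. Counts were summed per pool or subset and scaled to CPM. Levels have exact Poisson intervals, ratios conditional binomial intervals (Clopper-Pearson) and mix-held ratios intervals from the variance of the log ratio, all at 95% and for counting error only. Genes needed 50 UMIs over both sums and were marked at a ratio of 0.8 or less or 25% or more above 1; receptor variable genes were not counted. The calculation was run on simulated Poisson counts with no spread between cells or mice. That run cannot show how well the intervals hold for these data. All members were named in each comparison, the 2 highest and 2 lowest genes past the fold per pathway list for the comparisons described, and the genes most like a member by Pearson r of log2(CPM + 10) among those with at least 200 UMIs. Members, lists and subset names were chosen with earlier results of these data known.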

Additional observations from a re-analysis of the deposited data

Results flagged for a closer look

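The KO over control ratio of 3 members lay below 1 at day 0 and above 1 at day 4, with both counting intervals clear of 1. Klf2 was at 0.910 at day 0 and 1.16 at day 4 in B cells, and at 0.924 and 1.14 in T cells. Foxp1 in B cells was at 0.932 and 1.10, and Btg1 in B cells at 0.935 and 1.11. With the control subset mix held, only Klf2 in B cells at day 0 had an interval that held 1 (0.995, 0.952 to 1.041). The difference between the days was not tested, since each value compares 1 pool with 1 pool. The KO day ratio over the control day ratio of Klf2 was 1.28 (1.21 to 1.35) in B and 1.24 (1.17 to 1.31) in T cells, with counting error alone in the intervals. Klf2 was not alone in this: 4 of 9 members in each lineage, Klf2 among them, had this interval above 1, and 0 of 9 had it below 1.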

How the results depend on the processing

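No paired analysis was possible because each group is 1 pool and no replicate numbers are shared. Of 252 counts recomputed under other settings, 184 stayed within 1.5 times and 68 moved. Of 1620 member ratios 84 crossed 1, and in 30 of these the interval of the reported ratio was clear of 1. Counts below are members at or under a ratio of 0.8 to the reference or day 0 unless said otherwise; the cause of each change was not tested. Holding the subset mix, leaving out shared barcodes and, for subsets and values within them, the total without receptor, ribosomal and mitochondrial genes were chosen after seeing the data. Depth limits Tob1 most, with 72 to 409 UMIs a pool, and no value here holds the spread between mice.

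At 1.5-fold the day counts were 2 in B control, 1 in B KO, 0 in T control and 0 in T KO. The subset counts were 4 in marginal zone-like, 3 in B1-like and 3 in interferon-responding B cells, 4 in interferon-responding, 5 in innate-like and 4 in regulatory T cells, 0 higher in transitional-like cells, and 0 for KO over control in B cells at day 0. As a mean over cells the day counts were 4 in B control, 3 in T control and 0 in T KO. With the subset mix held they were 0, 1, 1 and 0 in B control, B KO, T control and T KO. They were 5 in B control and 0 in T KO without cells over 3 times the median UMIs, 4 and 0 without cycling cells, and 5 and 3 with median-ratio scaling. T KO was 3 with hashtags by share or another total, and 0 without shared barcodes.

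At Leiden resolution 0.5 the counts were 3 in interferon-responding B cells, 4 in interferon-responding T cells and 4 in innate-like T cells; thinned to 1500 UMIs, 3 in interferon-responding B cells. Gated cell by cell they were 1 in interferon-responding B cells, 4 in effector or memory, 4 in interferon-responding, 4 in innate-like and 3 in regulatory T cells, with 5 higher in transitional-like cells.

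For pairs within subsets, the share of all gene and subset pairs was computed under the main setting only. By day, the lower pairs in B cells were 6 thinned, 8 at 1.5-fold and 9 gated, and in T cells 9, 9 and 12. The higher pairs in B cells were 3 at resolution 0.5, 2 at 1.5-fold, 3 as a mean over cells and 0 gated, and in T cells 2, 2, 2 and 0. For KO over control the higher pairs in B cells were 15 at resolution 0.5, 1 thinned and 4 gated, and in T cells 6 thinned, 2 at 1.5-fold and 5 gated. The lower pairs in B cells were 1 at resolution 0.5, 3 thinned, 2 at 1.5-fold, 2 with hashtags by share, 3 as a mean over cells and 2 gated, and in T cells 5 at resolution 0.5, 5 thinned, 3 at 1.5-fold and 2 gated.

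The 30 ratios follow. With the mix held they were Klf2 (1.004), Klf3 (1.06) and Btg2 (1.003) in B control, Klf2 (1.09), Klf3 (1.083) and Foxp1 (1.01) in B KO and Klf13 (1.03) in T control. Thinned, they were Tob1 in B1-like cells (1.31) and Btg1 in T cluster 13 (1.001). At resolution 0.5 they were Klf2 in transitional-like cells (1.03) and Btg2 (1.0797) and Klf13 (0.799) in T cluster 0. Gated cell by cell, they were Klf2 (1.22) and Klf6 (1.01) in transitional-like and Klf2 (1.06) and Foxp1 (1.079) in interferon-responding B cells. In T cells they were Klf2 (1.01), Klf6 (1.42) and Tob1 (1.28) in effector or memory-like, Klf3 (1.248), Klf6 (1.32), Btg2 (1.254) and Tob1 (1.35) in innate-like, Klf6 (1.0804), Btg2 (1.02) and Foxo1 (0.935) in regulatory, Btg2 (1.23), Foxo1 (0.949) and Tob1 (1.005) in interferon-responding cells and Klf13 (0.557) in cluster 0.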
